A study of Mus musculus with 3 samples.

Results

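T follicular regulatory (TFR) cells labelled as expressing constitutively active NFATc1/αA without Blimp-1 were compared with TFR cells labelled NFATc1-deficient, by RNA-seq over all genes. The comparison takes 2 of the 3 libraries of the series, 1 on each side, and its members are the 7017 genes, of 25759 in the tables, whose RPKM passed 5 in 1 or more of the 3. RPKM is the number of exon reads of a gene divided by its exon length and by the library total. The library labelled NFATc1-deficient (N) has the genotype Nfatc1 fl/fl.Prdm1 gfp/+.FIC, and the library labelled NFATc1/αA-overexpressing and Blimp-1-deficient (PαA) the genotype Nfatc1 caaA.Prdm1 gfp/fl.FIC. The library αA, of the genotype Nfatc1 caaA.Prdm1 gfp/+.FIC, took no part in the ratios, and its levels are given beside those of the other two. FIC is a Cre recombinase made from the Foxp3 locus (Foxp3-IRES-Cre), so that recombination of these alleles follows Foxp3 expression. All 3 genotypes carried the Cre and a Prdm1-gfp reporter allele, which marks cells that transcribe Prdm1. The mice had received 125 µg NP-KLH in alum intraperitoneally, followed by a boost on day 7, and CD4+B220-GFP+CXCR5+GITRhi cells were sorted from spleen and mesenteric lymph nodes. N and PαA differ in Nfatc1 and in Prdm1 at the same time, so what belongs to either gene cannot be told apart. The number of mice behind a library is not given in the sources used here, there are no replicates, and no test was possible. The libraries held 23269443 to 27637953 exon reads. Each ratio is that of PαA over N in 1 library each, with an exact 95% counting interval in brackets. The interval covers the counting of reads only, and not the spread between mice or libraries. It takes every read as separate, although PCR copies cannot be told from molecules.

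TFR cells are regulatory T cells that carry Foxp3 and enter B cell follicles by way of the chemokine receptor CXCR5, where they restrain the germinal centre reaction. NFATc1 is a transcription factor that calcineurin releases into the nucleus after antigen receptor signalling, and αA is its short inducible isoform. Blimp-1, the product of Prdm1, is a zinc finger repressor that drives the effector programme of regulatory T cells and of plasma cells. Cells leave lymphoid tissue along sphingosine-1-phosphate through S1PR1, whose gene is a target of the factor KLF2, and they stay in the T cell zone through CCR7.

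The targeted genes were examined first. Prdm1 had 4092 exon reads in N, against 3635 in αA and 1370 in PαA, which is 25.6, 24.9 and 10.0 RPKM. PαA was the low library, with a log2 ratio over N of -1.36 [-1.44, -1.27]. Reads across exon junctions of Prdm1 numbered 311, 360 and 126 in the same order, whereas its intron reads numbered 182, 165 and 207. Nfatc1 had 14053 exon reads in N, against 12737 in αA and 6124 in PαA, which is 63.6, 62.9 and 32.4 RPKM, with a log2 ratio of -0.98 [-1.02, -0.93]. Nfatc1 was thus lower in the library labelled overexpressing than in the library labelled deficient. The counts are summed over the gene and do not show the floxed exon or the transgene separately, so they check neither Nfatc1 label, and N and PαA stand for the labels throughout. Every direction given here rests on those labels.

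Of the genes of the sort, Tnfrsf18, which encodes GITR, had 303, 217 and 145 RPKM in N, αA and PαA (log2 ratio -1.07 [-1.12, -1.02]). Cxcr5 had 48.3, 81.3 and 47.6 RPKM, and N and PαA did not differ beyond counting error (-0.02 [-0.09, 0.04]). Cd4 had 488, 396 and 341 RPKM (-0.52 [-0.54, -0.50]). Ptprc, which encodes CD45 and its B220 form, had 263, 185 and 115 RPKM (-1.20 [-1.22, -1.17]). Foxp3, the lineage factor, had 32.8, 21.0 and 15.3 RPKM (-1.10 [-1.19, -1.02]). PαA was the lowest of the 3 libraries for each of these genes, with only a narrow distance to N for Cxcr5. The 7 T cell markers, which include Cd4 and genes of the T cell receptor complex, summed to 3529 RPKM in N, 4073 in αA and 3208 in PαA. Their log2 ratios went from -0.52 to 0.23.

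**Figure D1:**
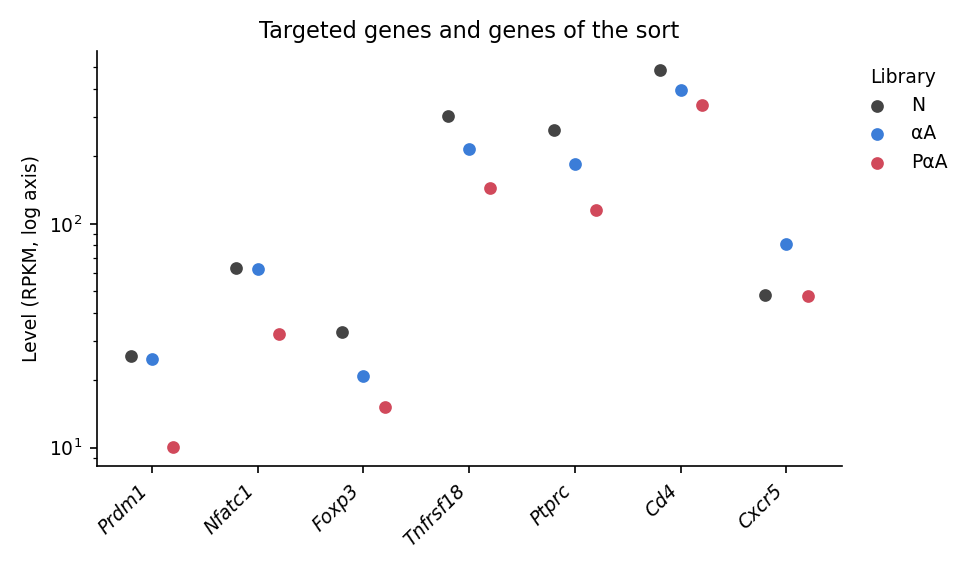
Levels (RPKM, log axis) of the targeted genes Prdm1 and Nfatc1 and of 5 genes of the sorted cells in the libraries N, αA and PαA, 1 point for each library. PαA lies lowest for all 7 genes, and for Cxcr5 it lies beside N at 47.6 against 48.3 RPKM.

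Of the 7017 expressed genes, 725 (10.3%) had a ratio of PαA over N past 2-fold in either direction. 180 genes (2.57%) were higher in PαA and 545 (7.77%) were lower. 54 genes were more than 4-fold higher and 56 more than 4-fold lower. The interval of the ratio lay wholly past 2-fold for 482 of the 725. The median log2 ratio of the expressed genes was -0.19 and not 0, and 72.1% of genes lay within 1.5-fold. The split into higher and lower genes depended on this offset. With TMM factors, which raise every log2 ratio by the same amount and bring the median to 0.039, 252 genes (3.59%) were more than 2-fold higher and 273 (3.89%) lower. Genes at the border had almost the same ratio on either side of it. Ptgfrn, with 1095 reads in N and 469 in PαA, was counted, and Dpp4, with 2567 and 1101, was not.

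The ratio also went with transcript length. When the genes were divided into 4 equal groups by exon length, the median log2 ratio was 0.09 in the shortest (201 to 1898 bases), where 95 genes were more than 2-fold higher and 58 lower. It was -0.52 in the longest (4461 to 19341 bases), with 9 genes higher and 290 lower. Across 7004 genes with reads in both libraries, Spearman's rho between exon length and ratio was -0.47, as a description of these libraries. The part that length plays in the calls was not tested beyond a centring of each ratio on genes of the same exon length, after which 204 genes (2.91%) were more than 2-fold higher and 230 (3.28%) lower. Of the targeted and sort genes, Foxp3 and Ptprc came inside 2-fold with TMM factors, at -0.87 and -0.97. After length centring they lay at -0.78 and -0.77. Tnfrsf18 came inside 2-fold with TMM factors alone (-0.84), and Prdm1 after centring alone (-0.91). The medians and counts of the gene lists stand beside a median of -0.19 over all expressed genes, of which 2.57% were higher and 7.77% lower. Several are given with this centring as well.

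**Figure D2:**
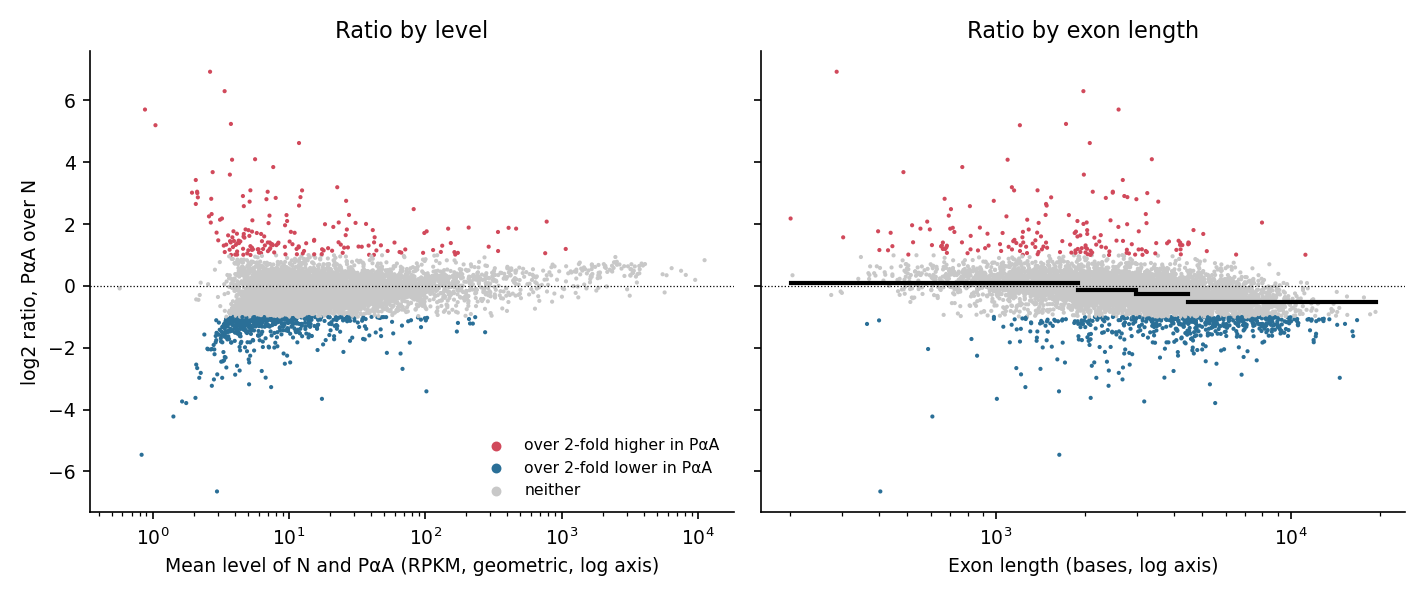
The log2 ratio of PαA over N for each expressed gene with reads in both libraries, against its level (left, RPKM) and its exon length (right, bases). Red and blue points are genes more than 2-fold higher or lower, and the black bars are the medians of 4 groups by length, which go from 0.09 to -0.52.

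Genes of T cell egress and homing had a median log2 ratio of 0.56, against -0.19 for all expressed genes. Klf2, the factor that keeps T cells quiescent and recirculating, had 54.3 RPKM in N, beside 56.0 in αA and 178 in PαA (1.71 [1.65, 1.77]). S1pr1 had 55.5, 88.0 and 189 RPKM (1.77 [1.72, 1.81]). Ccr7 had 18.3, 49.9 and 73.7 RPKM (2.01 [1.91, 2.11]). PαA was the highest library for all 3 genes, and for Klf2 the other two libraries lay close together. Actn1, an actin cross-linker, had 8.28, 31.8 and 21.6 RPKM (1.38 [1.27, 1.49]), and Rasgrp2, an activator of Rap1 in integrin adhesion, 6.60, 8.33 and 13.4 RPKM (1.02 [0.90, 1.15]). Il7r, the receptor chain for the survival cytokine IL-7, stood just inside 2-fold at 82.9, 64.2 and 164 RPKM (0.98 [0.94, 1.02]), and Tcf7, a factor of naive and memory T cells, had a log2 ratio of 0.70. Satb1, a chromatin organiser of thymic T cell development, was lower at 6.29, 2.68 and 2.03 RPKM (-1.63 [-1.76, -1.50]), as was Lef1, the relative of Tcf7 (-1.27 [-1.39, -1.15]). After length centring Satb1 lay inside 2-fold at -0.77. In all, 5 of 18 expressed members of the naive and egress list were more than 2-fold higher and 2 lower, beside 2.57% and 7.77% of all genes, and the median was 0.70 after length centring.

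Among the chemotactic receptors, 7 of 21 expressed genes were more than 2-fold higher and 4 lower, with a median of 0.44. Ccr6, the receptor for CCL20 on cells bound for mucosal and follicular sites, had 11.4 RPKM in N, beside 12.5 in αA and 47.2 in PαA (2.05 [1.93, 2.18]). Gpr15, a receptor for homing to the large intestine, had 14.1, 10.0 and 50.1 RPKM (1.83 [1.69, 1.97]). Cx3cr1, the fractalkine receptor, had 2.58, 2.33 and 6.69 RPKM (1.38 [1.19, 1.57]). These receptors were alike in N and αA and stood out in PαA. Cxcr6 had 88.9, 143 and 191 RPKM (1.10 [1.05, 1.15]), with 3.94% of its PαA reads placed uniquely. Ccr10, at 31 reads in N and 1005 in PαA, rests on reads that match other places as well (5.87% unique) and is uncertain. Receptors of tissue homing and inflammation were among the lower genes. Ccr9, which guides cells to the small intestine, had 22.3, 7.95 and 3.89 RPKM (-2.52 [-2.65, -2.39]). Ccr3 had 6.15, 4.66 and 1.93 RPKM (-1.67 [-1.93, -1.42]), and Ccr8 had 76.6, 71.7 and 28.9 RPKM (-1.40 [-1.52, -1.29]). Cxcr3, Cxcr4 and Ccr4 lay within 1.5-fold, with log2 ratios of 0.44, 0.24 and -0.15.

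**Figure D3:**
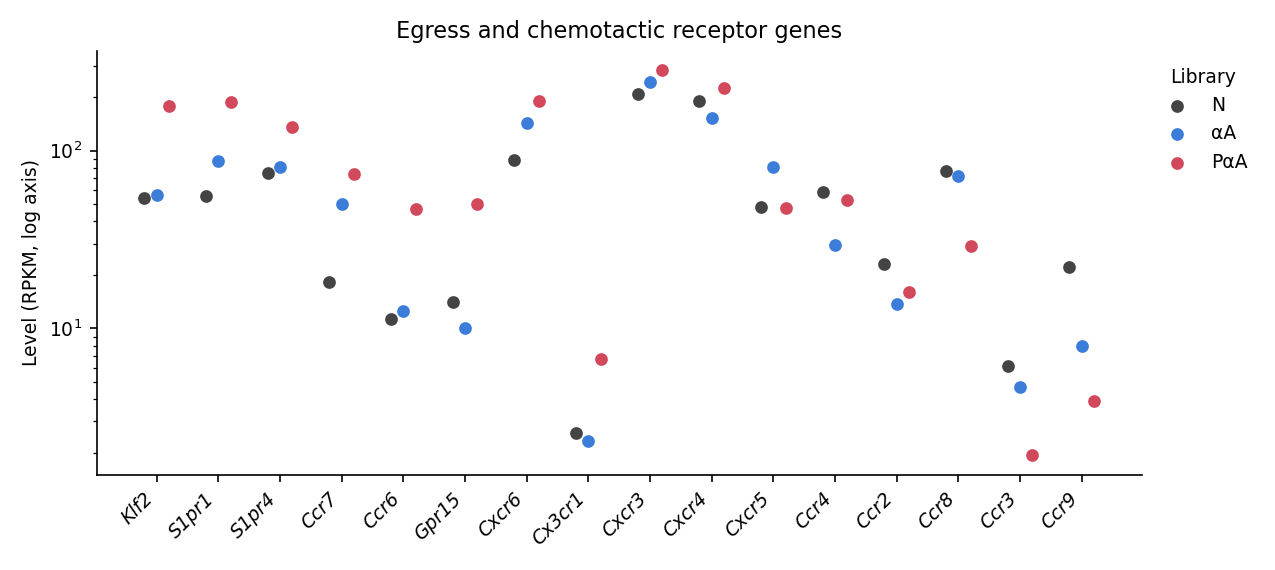
Levels (RPKM, log axis) of egress and chemotactic receptor genes in N, αA and PαA, 1 point for each library. Klf2, S1pr1, Ccr7, Ccr6 and Gpr15 are highest in PαA, and Ccr8, Ccr3 and Ccr9 are lowest there.

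Of the integrins, which anchor cells in tissue, none of 11 expressed genes was more than 2-fold higher and 4 were lower. Itgae, the αE chain CD103 that binds epithelial E-cadherin, had 63.3, 16.8 and 19.3 RPKM (-1.71 [-1.78, -1.65]). Itgb8 and Itgav, whose products pair to activate TGF-β, had log2 ratios of -1.61 [-1.73, -1.49] and -1.32 [-1.41, -1.22]. Itga4 lay at -1.03 [-1.07, -0.98], and with TMM factors at -0.80. Its partners Itgb7 and Itgb1 had ratios of 0.22 and 0.33. The median was -0.65, and -0.22 after length centring, by which 1 integrin was more than 2-fold lower and 1 more than 2-fold higher.

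The promoters of genes in the forefront of the comparison are shown for the 250 bases before their start sites, as examples chosen after their values were seen. They were taken from RefSeq (GRCm38.p6), and capitals mark GGAAA, the core that NFAT factors bind, on either strand. Klf2 (chr8:72318812-72319061, plus strand), Ccr6 (chr17:8235793-8236042, plus strand) and Nkg7 (chr7:43436888-43437137, plus strand) were higher in PαA, Ctla4 (chr1:60908775-60909024, plus strand) was lower, and Prdm1 (chr10:44458749-44458998, minus strand) was targeted.
Klf2: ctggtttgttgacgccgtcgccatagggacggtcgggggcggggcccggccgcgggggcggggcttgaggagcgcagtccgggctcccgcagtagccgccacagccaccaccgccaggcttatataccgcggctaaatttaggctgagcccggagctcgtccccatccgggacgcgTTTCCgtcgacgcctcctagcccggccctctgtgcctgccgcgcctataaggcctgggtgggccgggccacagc
Ccr6: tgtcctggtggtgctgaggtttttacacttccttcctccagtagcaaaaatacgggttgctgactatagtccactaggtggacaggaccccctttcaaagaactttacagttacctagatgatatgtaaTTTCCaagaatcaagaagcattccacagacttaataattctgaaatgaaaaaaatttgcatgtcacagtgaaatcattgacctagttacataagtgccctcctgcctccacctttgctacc
Nkg7: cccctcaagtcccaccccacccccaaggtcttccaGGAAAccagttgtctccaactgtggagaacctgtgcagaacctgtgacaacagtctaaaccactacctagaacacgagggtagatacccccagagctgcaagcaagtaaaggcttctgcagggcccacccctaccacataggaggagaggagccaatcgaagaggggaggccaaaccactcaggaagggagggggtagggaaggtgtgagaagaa
Ctla4: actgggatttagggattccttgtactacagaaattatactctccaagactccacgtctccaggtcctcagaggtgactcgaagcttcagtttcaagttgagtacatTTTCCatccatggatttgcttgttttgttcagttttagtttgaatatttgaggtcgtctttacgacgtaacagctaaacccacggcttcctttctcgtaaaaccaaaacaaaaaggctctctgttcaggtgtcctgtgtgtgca
Prdm1: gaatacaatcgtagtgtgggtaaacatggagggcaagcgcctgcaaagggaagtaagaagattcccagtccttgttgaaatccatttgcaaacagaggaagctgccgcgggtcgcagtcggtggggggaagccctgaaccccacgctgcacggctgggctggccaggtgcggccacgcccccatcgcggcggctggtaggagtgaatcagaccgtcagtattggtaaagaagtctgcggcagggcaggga
The first 4 hold 1 GGAAA match each, 74, 121, 215 and 144 bases before the start site in the order shown, and Prdm1 holds 0. None of the 5 holds GTGAAAG, a core of sites that Blimp-1 binds. Promoters were matched for 5530 of the 7017 expressed genes. GGAAA stood on either strand in 55.5% of them, in 57.9% of 114 promoters of genes more than 2-fold higher and in 49.8% of 412 of genes more than 2-fold lower. GTGAAAG stood in 2.80% of all, in 3.51% of the higher [0.964, 8.74] and in 1.46% of the lower [0.536, 3.14]. These shares are descriptions, and no binding was measured here.

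The genes of regulatory T cell identity lay low in PαA as a group. 10 of 19 expressed members were more than 2-fold lower, beside 7.77% of all genes, and 0 were higher, with a median of -1.07. After length centring the median was -0.78 and 8 were lower, beside 3.28% of all genes, and with TMM factors 7 were lower, beside 3.89%. Penk, the precursor of enkephalin peptides that marks activated regulatory T cells, had 332 RPKM in N, beside 40.6 in αA and 31.3 in PαA, and a log2 ratio of -3.41 [-3.49, -3.33]. Tnfrsf9, the costimulatory receptor 4-1BB, had 140, 91.2 and 30.9 RPKM (-2.19 [-2.25, -2.12]). Only 25.6% of its reads were unique, and unique reads gave -2.31. Ecm1 had 34.1, 20.2 and 10.1 RPKM (-1.75 [-1.89, -1.61]). Izumo1r, the folate receptor 4, had 462, 560 and 164 RPKM (-1.50 [-1.53, -1.46]), and Ctla4, the inhibitory receptor that strips CD80 and CD86 from other cells, had 148, 188 and 58.7 RPKM (-1.33 [-1.39, -1.27]). For these last 2 genes αA was the highest library, and PαA stood alone at the low end. Ikzf4 (Eos) lay at -1.10 and Ikzf2 (Helios) at -0.89. Il2ra, the IL-2 receptor α chain CD25, had 33.5, 38.6 and 29.1 RPKM (-0.20 [-0.26, -0.14]), close to the median of all genes, and Il2rb had a ratio of 0.01.

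Inhibitory receptors and ectoenzymes gave 0 higher and 4 lower of 14 expressed genes, with a median of -0.84, and of -0.60 after length centring. All 14 had ratios below 0 by RPKM, from -1.50 to -0.11. Besides Ctla4 these were Cd101 (19.8, 7.49 and 7.02 RPKM, -1.50 [-1.63, -1.37]), Pdcd1, which encodes PD-1 (341, 205 and 147 RPKM, -1.22 [-1.26, -1.18]), and Lag3 (330, 281 and 164 RPKM, -1.01 [-1.05, -0.97]). With TMM factors Pdcd1 and Lag3 no longer passed 2-fold, at -0.99 and -0.78. Tigit had 526, 732 and 301 RPKM (-0.81 [-0.85, -0.77]).

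The suppressive mediators past 2-fold went both ways, with 3 of 13 expressed genes higher and 3 lower. The list median was -0.70, and -0.41 after length centring, and 10 of the 13 genes had ratios below 0. Areg, which encodes the repair factor amphiregulin, had 288, 76 and 34 reads (-2.86 [-3.42, -2.34]). Gzmb had 48.2, 33.4 and 21.2 RPKM (-1.18 [-1.30, -1.06]), and -0.95 with TMM factors. Lgals1, the secreted galectin-1, had 526, 574 and 1097 RPKM (1.06 [1.03, 1.09]), and Lgals3 had 29.4, 35.1 and 65.2 RPKM (1.15 [1.06, 1.24]). Pcsk1, a convertase that cleaves prohormone precursors, had 521, 37 and 1433 reads (1.68 [1.54, 1.83]). Il10 was highest in αA at 69.4 RPKM, and N and PαA stood at 22.1 and 17.4 (-0.34 [-0.50, -0.19]).

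Tissue and effector genes of regulatory T cells gave 2 higher and 6 lower of 19, with a median of -0.69 and of -0.43 after length centring. Klrg1, a receptor of terminally differentiated effector cells, had 172, 11.7 and 26.9 RPKM (-2.68 [-2.78, -2.58]). N was the high library by far. Tnfrsf8, which encodes CD30, had 1539, 825 and 369 reads, and was 3.57-fold lower in PαA. Maf, a factor for IL-10 and follicular T cell genes, had 105, 84.5 and 43.3 RPKM (-1.28 [-1.32, -1.25]), but -0.62 after length centring. Il1rl1, the IL-33 receptor ST2, was lowest in αA at 3.20 RPKM, with 15.8 in N and 8.43 in PαA (-0.91). Pparg, the factor of fat tissue regulatory T cells, went the other way at 2.56, 4.02 and 7.09 RPKM (1.47 [1.22, 1.72]).

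Follicular help genes gave 0 higher and 5 lower of 19, with a median of -0.62 and of -0.43 after length centring. Cebpa had 24.7, 21.6 and 7.81 RPKM (-1.66 [-1.81, -1.52]), and Pou2af1, a coactivator of octamer-binding factors, 1044, 451 and 317 reads (-1.50 [-1.68, -1.31]). Bcl6, the repressor that opposes Blimp-1, had 9.16, 5.96 and 4.71 RPKM (-0.96 [-1.13, -0.79]), just short of 2-fold. Of 12 helper lineage genes, 4 were lower, with a median of -0.38 over the list and of -0.06 after length centring. Il17a had 184, 55 and 25 reads (-2.66 [-3.32, -2.05]) and Il13 211, 76 and 52 reads (-1.80 [-2.26, -1.35]). Il4 stood at -1.07 [-1.41, -0.73]. Ahr, a ligand-activated factor, had 8.05, 6.17 and 2.92 RPKM (-1.46 [-1.62, -1.30]). Il23r, a cytokine receptor gene of IL-17-producing cells, had 54, 141 and 383 reads (3.05 [2.64, 3.49]).

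In the cytotoxic list, the members more than 2-fold lower were the granzymes Gzma and Gzmb. Those more than 2-fold higher were Nkg7, Ctsw, the natural killer type receptors Klrc1 and Klrd1, and the chemokines Ccl3, Ccl4 and Xcl1. Gzma had 61.8, 3.87 and 4.92 RPKM (-3.65 [-3.92, -3.39]). Nkg7, a granule membrane protein, had 108, 252 and 401 RPKM (1.89 [1.83, 1.95]). Klrc1, which encodes the inhibitory receptor NKG2A, had 62, 349 and 645 reads (3.60), and its partner Klrd1 (CD94) had 38, 169 and 155 reads (2.25 [1.73, 2.80]). N was the low library for these 3 genes. Ccl3, Ccl4 and Xcl1 had log2 ratios of 1.41, 1.40 and 1.41, and Ctsw lay at 1.01. In all 7 of 18 were more than 2-fold higher and 2 lower, with a median of 0.48 and of 0.54 after length centring. Ncr1, a defining gene of natural killer cells, had 12, 15 and 10 reads. Of 6 natural killer cell markers 2 were expressed, with log2 ratios of 0.77 and 1.02, so that 1 was more than 2-fold higher. Of the CD8 genes Cd8a had 18, 179 and 231 reads, and Cd8b1 400, 486 and 198. The part of such cells in these values was not tested, and in bulk RNA more cells of a kind and more RNA per cell cannot be told apart.

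Genes induced early after T cell receptor engagement gave 0 higher and 9 lower of 27, with a median of -0.74 and of -0.43 after length centring. Rgs16, a brake on G protein signalling, had 3653, 1881 and 713 reads (-2.13 [-2.25, -2.02]). The nuclear receptors Nr4a3 and Nr4a1 had log2 ratios of -2.09 [-2.25, -1.93] and -1.48 [-1.59, -1.37]. Egr2 had 21.7, 15.5 and 6.11 RPKM (-1.82 [-1.96, -1.69]). Rgs1, Cd83, Egr1, Dusp1 and Egr3 were the other members past 2-fold. PαA was the lowest library for each of these. Other early genes did not share this, and Jun, Fos and Dusp2 had ratios of -0.04, -0.17 and 0.40. Of 17 genes of NFAT and calcium signalling, 0 were higher and 1 was lower, near the 7.77% of all genes, with a median of -0.34 and of 0.02 after length centring. That gene was Ppp3ca, the calcineurin Aα subunit (13.7, 6.49 and 5.32 RPKM, -1.36 [-1.49, -1.23]), which lay inside 2-fold at -0.96 after length centring. The T cell receptor complex and its proximal kinases gave 0 higher and 3 lower of 23, and 1 lower with TMM factors or after length centring. Cd6, a scavenger receptor that tunes the synapse, had 284, 131 and 102 RPKM (-1.47 [-1.51, -1.44]), whereas Malt1 stood at -1.01, and inside 2-fold with TMM factors (-0.78).

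Of cytokine receptor signalling genes, 1 of 27 was higher and 2 were lower, near the 2.57% and 7.77% of all genes, and the median went from -0.32 to 0.09 after length centring. Jak2, a kinase downstream of many cytokine receptors, had 34.3, 16.9 and 9.24 RPKM (-1.89 [-1.98, -1.80]), Stat2 stood at -1.09 (-0.87 with TMM factors and -0.73 after length centring), and Pim2, a survival kinase, at 1.03. Il1r2, the decoy receptor for IL-1, had 65.5, 33.3 and 19.7 RPKM (-1.73 [-1.83, -1.63]), and the cytokine gene Il18 had 144, 207 and 315 reads (1.35 [1.06, 1.65]); they were the called members among 7 expressed genes of the IL-1 and IL-18 list. The TNF receptor superfamily and its ligands gave 3 higher and 4 lower of 21. Tnfsf10 (TRAIL) was among the lower at -1.39 [-1.49, -1.28], and lay inside 2-fold at -0.95 after length centring. Tnfrsf26, Tnfsf14 (LIGHT) and Lta were the higher, at 1.13, 1.07 and 1.03. The BCL-2 family gave 2 higher of 14, Bik at 1.31 and Bcl2a1a at 1.18, the latter with few unique reads, and the 8 GIMAP genes lay between -0.96 and -0.13 with none past 2-fold.

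Interferon-stimulated genes gave 4 higher and 7 lower of 31, with a median of -0.35 that was -0.12 with TMM factors. The 7 lower genes became 2 with TMM factors and 2 after length centring, beside 3.89% and 3.28% of all genes. By RPKM the lower genes included the RNA sensor Ifih1 (-1.25 [-1.41, -1.10]) and the GTPases Iigp1 (-1.25), Gbp7 (-1.22) and Gbp5 (-1.21), of which Gbp7 and Gbp5 came inside 2-fold with TMM factors. The IFITM membrane proteins, which block virus entry, were on the other side. Ifitm1 had 30, 19 and 436 reads (4.08 [3.55, 4.67]), so that PαA alone held it above 5 RPKM. Ifitm3 had 154, 196 and 314 reads (1.25 [0.97, 1.54]), while Ifitm2 at 1.31 had 141 unique among 1007 reads in PαA and lay at 0.70 by unique reads. The MHC class I genes gave 1 of 20 lower, beside 7.77% of all genes, and this was their activator Nlrc5 at -1.29 [-1.40, -1.18], which came inside 2-fold at -0.63 after length centring.

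Lists of basic cell functions held 1 gene past 2-fold or none, where 2.57% of all genes were higher and 7.77% lower. None of 79 ribosomal protein genes, 54 nuclear genes of oxidative phosphorylation or 13 mitochondrial genes passed 2-fold, and their medians were 0.50, 0.23 and 0.30. These genes are short, and after length centring the medians were 0.33, 0.06 and 0.04. The ribosomal protein genes were still shifted as a class. All 79 had ratios above the median of all expressed genes, with 78 above 0 and 1 below. They took up 13.6% of the N library by exon counts, compared with 15.5% of αA and 19.8% of PαA. What this share contributes to the median of -0.19 or to the number of lower genes was not tested. Glycolysis and hypoxia genes gave 1 of 19 lower, Hif1a at -1.11 [-1.15, -1.07], which came inside 2-fold with TMM factors (-0.88) and after length centring (-0.65), and cell cycle genes 1 of 14 lower, Top2a at -1.60 [-1.75, -1.45]. The median of the glycolysis list was -0.23, close to that of all genes, and 0.00 with TMM factors. Endoplasmic reticulum and sterol synthesis genes had 1 lower gene each of 21 and 19, namely Atf4 (-1.08) and Scd2 (-1.10), both inside 2-fold with TMM factors. The Y-linked genes Ddx3y, Uty and Eif2s3y were read in all 3 libraries, with ratios of -0.49, -0.43 and 0.99.

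**Figure D4:**
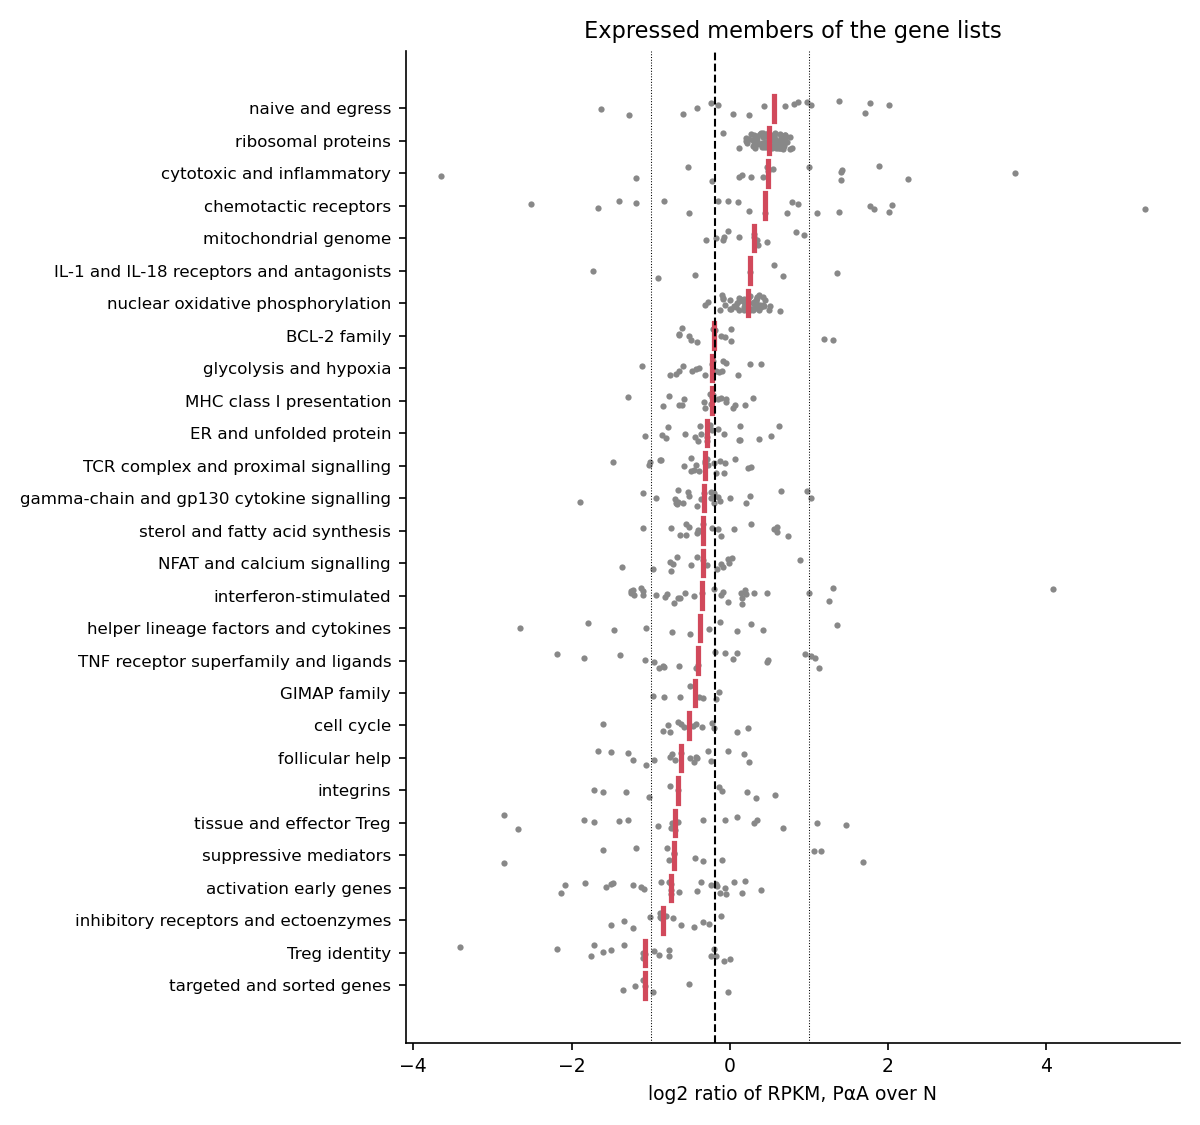
The log2 ratio of PαA over N for the expressed members of each gene list shown (grey points), with the list median (red bar), the median of all expressed genes (dashed line, -0.19) and 2-fold either way (dotted lines). Regulatory T cell identity lies lowest beside the targeted and sorted genes at -1.07, and naive and egress genes highest at 0.56.

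Among genes past 2-fold with 100 or more reads in the higher library, 50% or more of them unique, the highest and lowest ratios came from genes of several origins. Serpinb1a, an inhibitor of neutrophil-type serine proteases, had 2.38, 12.1 and 58.7 RPKM (4.62 [4.39, 4.87]). Mmp25, a membrane-bound metalloprotease, had 136, 202 and 1998 reads (4.10 [3.85, 4.36]), and Prss12, a secreted serine protease, 9, 67 and 403 reads (5.71 [4.77, 6.85]). Jaml, an adhesion molecule, Sept5, a septin, and Arl4d, a small GTPase, had log2 ratios of 3.43, 3.05 and 3.09. Sdc1, the plasma cell proteoglycan syndecan-1, had 72, 91 and 495 reads, 8.03-fold more by its share of the library, and the clock repressor Nr1d1 135, 151 and 869 reads (2.91 [2.65, 3.18]). Epdr1 had 50, 373 and 347 reads (3.02 [2.59, 3.48]). Gcg, the glucagon precursor, had 251, 748 and 1968 reads (3.19).

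At the other end, Scin, an actin-severing protein, had 550, 16 and 0 reads, where a limit of 3 reads makes it at least 157-fold lower. Calca, the calcitonin gene, had 257, 13 and 5 reads (-5.46 [-7.10, -4.22]). Wdfy1, an endosomal adaptor, had 1064, 94 and 66 reads (-3.79 [-4.17, -3.43]). Epas1, which encodes HIF-2α, had 15.3, 2.48 and 1.69 RPKM (-3.18 [-3.38, -2.98]), and Nav2, a cytoskeletal gene, 6.10, 0.969 and 0.778 RPKM (-2.97 [-3.15, -2.80]). For these 5 genes αA stood nearer to PαA than to N, and N was the high library. Ecel1, Ddc, Gjb2, Ier5l and the pseudogene Art2a-ps, with ratios from -3.74 to -3.02, had αA levels between those of N and PαA. Retnlg and Saa3, at -4.22 and -2.81, are genes of neutrophils and of acute inflammation, and αA had 0 and 5 reads of them.

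Markers of other cells differed between the libraries. Haemoglobin and other erythroid markers were higher in PαA, with 5 of 5 expressed genes past 2-fold and summed levels of 573 RPKM in N, 2409 in αA and 2153 in PαA. Macrophage and monocyte markers summed to 356, 349 and 425 RPKM, with 4 of 10 expressed genes higher in PαA. Plasma cell markers summed to 50.2, 67.8 and 109 RPKM, with Sdc1 (above) and Jchain (1.10) higher, while Tnfrsf17 (BCMA) had 5, 21 and 0 reads. Neutrophil markers summed to 43.3, 1.05 and 28.1 RPKM and stromal markers to 27.9, 10.3 and 14.8 RPKM. N held the collagens, with Col1a1 at 907, 36 and 188 reads. B cell markers summed to 17.6, 13.9 and 15.1 RPKM, natural killer cell markers to 29.8, 30.9 and 48.9 RPKM and CD8 markers to 9.27, 14.1 and 8.14 RPKM. Dendritic cell markers summed to 4163, 1548 and 1072 reads, of which Ccr9 gave 3697, 1210 and 554, while mast cell and platelet markers stayed at or below 0.198 and 5.21 RPKM. Immunoglobulin constant genes have an exon length of 0 in the tables and were not measured.

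A list of pancreatic digestive enzymes was added after these values were seen. 13 of its 16 genes had 0 reads in N, against 1 in αA and 0 in PαA, and the list summed to 253, 820 and 2615 reads. Ctrb1, a chymotrypsinogen, had 0, 71 and 472 reads, at least 184-fold higher in PαA than in N, and Pnlip, pancreatic lipase, 0, 84 and 240 reads, at least 93.4-fold higher. The islet hormone genes Ins1, Ins2, Sst, Ppy and Iapp had 0 reads in all 3 libraries. What these reads contribute to the other values was not tested. Leaving out ribosomal protein genes and markers of other cells left 168 genes more than 2-fold higher and 541 lower. The pancreatic enzymes were not among the genes left out, and 7 of them were more than 2-fold higher.

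Genes near Prdm1, Nfatc1, Foxp3 and the Rosa26 locus were listed apart, without the targeted genes themselves. Within 5 Mb of Prdm1, 4 of 24 expressed genes passed 2-fold, and they were Scml4 (1.13) and Cd24a (1.20) on the higher side and Foxo3 (-1.03) and Sec63 (-1.62) on the lower. Within 5 Mb of Nfatc1, 3 of 19 passed, with Fam69c at -2.45 [-2.80, -2.11] and Atp9b and Tshz1 only just past 2-fold lower. Near Foxp3, 5 of 21 passed, and 4 of them were lower. Syp, a synaptic vesicle protein, had 690, 244 and 95 reads (-2.64 [-2.96, -2.33]), and Cybb, the NADPH oxidase subunit of phagocytes, 4747, 2893 and 967 reads (-2.07 [-2.17, -1.97]). In the region of the Rosa26 locus, which the genotypes given above do not name, 3 of 30 passed. They were Pparg (1.47), Setd5 (-1.01) and Plxnd1 (-2.30). These shares of 16.7%, 15.8%, 23.8% and 10.0% stand beside 10.3% of all expressed genes, in groups of at most 30 genes. With TMM factors, and likewise after length centring, Foxo3, Atp9b, Tshz1 and Setd5 came inside 2-fold. So did Gripap1 and Bcor, which were among the lower genes near Foxp3.

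Intron reads, which unspliced transcripts can give, were not used to count genes and give a separate reading of the same libraries. Among 3579 expressed genes with at least 30 intron reads in the higher library, the median log2 ratio of intron reads was -0.01, against -0.30 for exon reads of the same genes. The 54 genes more than 2-fold higher in PαA by exon reads had a median intron ratio of 1.35, close to their exon median of 1.36, and 49 of them lay above 0. The 368 genes more than 2-fold lower had a median intron ratio of -0.19 where their exon median was -1.21, and 149 of them lay above 0. Higher genes with intron reads to match included Ccr6 (23 reads in N and 137 in PαA, 2.80 [2.15, 3.50]), Mmp25 (7 and 93, 3.95) and S1pr1 (5 and 34, 2.99 [1.63, 4.70]). Cx3cr1, another higher gene, had none to match, with 51 and 31 intron reads (-0.50 [-1.19, 0.18]). Ccr7, with 10 and 0, and Klf2, with 15 and 14 (0.12 [-1.04, 1.28]), fell short of the 30 intron reads set above. Tcf7 and Il7r, inside 2-fold by exon reads, had intron ratios of 1.54 [1.36, 1.74] and 1.33 [1.12, 1.55].

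Of the 368 lower genes, 82 had intron reads more than 2-fold lower as well. So did 556 of the 3157 genes that were not past 2-fold by exon reads. The quartiles of the intron ratio of those 3157 genes were -0.66 and 0.64. The genes named next are examples with or without an intron ratio that matches. Penk had 60 intron reads in N and 0 in PαA, Nr4a1 had 32 and 0, and Rgs1 had 38 and 0. Klrg1 had 129 and 12 intron reads (-3.20 [-4.19, -2.35]), Izumo1r 1606 and 420 (-1.71 [-1.87, -1.56]), Cd101 133 and 12 (-3.25 [-4.24, -2.39]), Il1r2 109 and 8 (-3.55 [-4.79, -2.52]) and Foxp3 117 and 51 (-0.97 [-1.48, -0.49]). Nfatc1 had 500 and 213 (-1.01 [-1.25, -0.77]), near its exon ratio. Ctla4, in contrast, had 722 intron reads in N and 675 in PαA (0.13 [-0.03, 0.28]) at an exon ratio of -1.33. Prdm1 had an intron ratio of 0.41 [0.11, 0.70], Maf of -0.03 [-0.25, 0.19] and Jak2 of -0.19 [-0.67, 0.29]. The library kit does not mark the strand, so intron reads of a gene can hold reads of an overlapping gene.

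**Figure D5:**
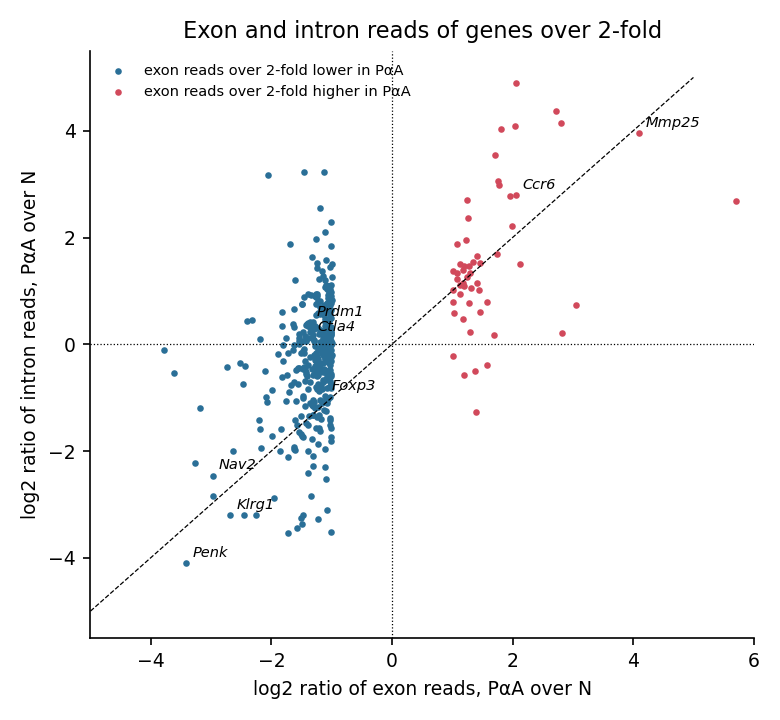
The log2 ratio of intron reads against that of exon reads, PαA over N, for genes more than 2-fold higher (red) or lower (blue) by exon reads with at least 30 intron reads in the higher library and exon reads in both; counts under 3 intron reads were set to 3. The dashed line marks equal ratios. Red points centre near it at 1.35, and blue points spread around -0.19 on the intron axis.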

How the data were processed

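The authors sequenced poly(A) libraries made with an unstranded kit as single reads, and mapped and counted them in CLC Genomics Workbench against GRCm38. The annotation release is not given in the sources used here. For each library they deposited, per gene, counts of exon reads (all and unique), of junction and intron reads, and RPKM and TPM. RPKM was taken as deposited for levels. Ratios were computed from exon reads and the library totals behind the RPKM, which were 29726219, 27239921 and 25465829 reads for N, αA and PαA. 3715 of 25759 genes are listed with an exon length of 0, so they have no RPKM and were left out.

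A gene was counted when its RPKM was above 5 in at least 1 library and its ratio above 2 either way. Both thresholds are those of the filter of the study, which compared N with αA or αA with PαA, whereas PαA is compared with N here. That filter names an expression value, and taking RPKM for it is a choice, because the deposited column of that name repeats the exon reads. Intervals are exact Clopper-Pearson intervals at 95%, and 3 reads served as the limit of detection. No test was possible with 1 library per genotype. Named genes were the targeted and sort genes, and the 15 highest and 15 lowest ratios among counted genes. Those ratios needed 100 or more reads in the higher library, of which 50% or more were unique. Up to 4 counted members of each list were named too, with its defining genes, and counted genes near the loci listed apart. Values of some genes are not reported here. Other genes named were chosen after their values were seen. The comparison and the lists were chosen with earlier results of these data known. TMM factors came from edgeR 4.0.16 in R 4.3.3, and the length centring was a lowess with a fraction of 0.3. Other steps used Python 3.11.15, pandas 2.3.3, scipy 1.17.1 and statsmodels 0.14.6. The call rule, intervals and centring were tested on simulated counts.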

Additional observations from a re-analysis of the deposited data

How the results depend on the processing

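With 1 library per genotype no replicate could be left out, and the labels give each library the same number only because each is single. No paired analysis was possible because no result comes from a test. The count of 725 genes became 1715 at an RPKM above 1, 392 above 10, 5220 without a filter on level, 1966 at 1.5-fold, 196 at 3-fold, 434 centred on exon length, and, as alternatives added after the data were seen, 482 with the whole interval past 2-fold and 1175 with intron reads. The 180 higher genes became 401 above 1 RPKM, 1688 without the filter, 398 at 1.5-fold, 82 at 3-fold and 536 with intron reads. The 545 lower genes became 881 by TPM, 273 by TMM, 262 by median-of-ratios factors, 1314 above 1 RPKM, 270 above 10, 3532 without the filter, 1568 at 1.5-fold, 114 at 3-fold, 337 with a pseudocount of 1, 230 centred on length and 341 with the whole interval past 2-fold. The median log2 ratio of -0.19 was -0.39 by TPM, 0.039 by TMM, 0.054 by median-of-ratios factors and 0.0063 centred on length. By construction thresholds and filters change the number of genes counted, and the cause of the other shifts was not tested. Of 104 named genes past 2-fold, the ratio came to under 2-fold for 20 by TMM, 20 by median-of-ratios factors, 27 centred on length, 15 with a pseudocount of 1, 4 by TPM and 1 by unique reads, and 0 changed direction in any of these. Of the 725, 8 had under 100 reads in the higher library and 101 had under 50% unique reads.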
